A study of Mus musculus with 12 samples.

Results

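The genes described are 10 members of the Bcl2 family, Mcl1, Bcl2, Bcl2l1, Bcl2a1b, Bcl2a1d, Bcl2l11, Bax, Bid, Bbc3 and Pmaip1, chosen by symbol from the 55335 genes listed in each library. All 10 matched an identifier of the gene annotation, and all 10 passed the filter on low counts in each of the 3 comparisons, Bcl2a1b and Bcl2a1d against bone marrow only through the tumor libraries, where they were high. The libraries are 12 RNA-seq libraries of sorted neutrophils, 4 in each of 3 groups. Each TAN group stands for 4 animals. Whether the 4 bone marrow libraries came from separate mice is not given in the sources used here, so p-values against them measure only the spread between these libraries, which may be technical. PyMT tumor-associated neutrophils (PyMT TANs) came from tumors of mice that carry the polyoma middle T oncogene, which drives growth of mammary tumors. PyMT-Cxcr2-/- TANs came from mammary tumors of mice with the same transgene that also lack Cxcr2, the chemokine receptor that neutrophils use to enter the blood and to home to inflamed tissue. WT BM neutrophils came from the bone marrow of mice with neither change. All mice were 10 weeks old, of the FVB background and kept in SOPF (specific and opportunistic pathogen free) housing. Per the study's methods, tumors were minced and digested with a dissociation kit, while marrow cells were spun out of the bones. BM neutrophils therefore differ from TANs in tissue, in the transgene and in how cells were freed, and these cannot be told apart. From PyMT-Cxcr2-/- TANs they differ in Cxcr2 as well. PyMT-Cxcr2-/- mice lack Cxcr2 in every cell, not in neutrophils alone.

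The Bcl2 family decides whether the mitochondrial outer membrane is opened and the cell dies by apoptosis. The pro-survival proteins (Mcl1, Bcl2, Bcl-xL from Bcl2l1 and A1 from the Bcl2a1 genes) hold the effectors Bax and Bak in check, and the BH3-only proteins (Bim from Bcl2l11, Bid, Puma from Bbc3 and Noxa from Pmaip1) bind the pro-survival proteins or the effectors. Neutrophils are short-lived cells that die by apoptosis unless they receive survival signals, and Mcl1, a protein of very short half-life, is the pro-survival member on which their survival is known to depend. The values below are transcript levels and say nothing of protein, which for Mcl1, Bim and Noxa is set to a large extent by degradation.

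Levels are given as CPM, the counts of a gene scaled to a fixed total of counts on genes and corrected by a TMM factor for each library. Libraries held between 25032704 and 51351569 counts on genes. A level of 3 counts was between 0.0575 and 0.0997 CPM, which covers counting error only. Cxcr2, the deleted gene, was between 1029.5 and 1536 CPM in PyMT TANs, between 8.97 and 10.1 CPM in TANs of PyMT-Cxcr2-/- mice and between 1818 and 2249.9 CPM in WT BM neutrophils, so every library had the Cxcr2 level of its label. The 9 neutrophil markers had counts in every group and summed to 9968 to 15802 CPM in PyMT TANs, 16797 to 27531 CPM in TANs of PyMT-Cxcr2-/- mice and 72458 to 95109 CPM in WT BM neutrophils. S100a8 and S100a9 made up most of the BM sum, at means of 28295 and 35184 CPM. Csf3r averaged 3736, 4827 and 3955 CPM in PyMT TANs, PyMT-Cxcr2-/- TANs and WT BM neutrophils. The other markers, which include the deleted Cxcr2, averaged less in each TAN group than in BM neutrophils. The 7 macrophage markers summed to 1258 to 2518 CPM in PyMT TANs, 1234 to 2056 CPM in TANs of PyMT-Cxcr2-/- mice and 196 to 283 CPM in WT BM neutrophils. The 8 mammary epithelium markers summed to 39.2 to 411 CPM in PyMT TANs, 69.8 to 279 CPM in TANs of PyMT-Cxcr2-/- mice and 0.0599 to 0.229 CPM in WT BM neutrophils, where Krt8, Krt5, Krt14 and Csn3 were listed at 0. Markers of proliferating cells summed to 79.9 to 157 CPM in TANs and 282 to 316 CPM in WT BM neutrophils, and those of T and NK cells to 9.80 to 41.6 and 209 to 244 CPM. In the latter list Cd3d and Cd3g averaged 221 and 3.43 CPM in WT BM neutrophils and 12.3 and 0.0418 CPM in PyMT TANs. The others, Cd3e, Trac and Ncr1, averaged 0.210, 0.131 and 0.103 CPM in WT BM neutrophils and 0.713, 0.405 and 0.286 CPM in PyMT TANs. B cell, erythroid and stromal markers summed to at most 19.6, 130.3 and 43.5 CPM in any library. PyMT TAN libraries were farther from their own group, at a mean distance of 49.8 to 52.6 over the 500 most variable genes, than PyMT-Cxcr2-/- TAN libraries at 23.6 to 27.6. PyMT TAN replicates 2 and 3 had counts for 20136 and 18552 genes, and the other 10 libraries for 21620 to 25975. In bulk libraries, fewer cells of a type and less RNA per cell cannot be told apart.

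In TANs of both genotypes, 8 of the 10 members were higher than in WT BM neutrophils and 1, Bid, was lower. Of all genes tested, 30.1% were higher and 23.2% lower in PyMT TANs, and 34.4% and 25.1% in PyMT-Cxcr2-/- TANs. Bcl2a1b and Bcl2a1d, at their low BM level, could be tested only through a higher TAN level. Without these genes, 6 of 8 members were higher and 1 lower in each TAN group. Of all genes that passed the filter in both groups, 27.4% and 27.1% were higher and 28% and 28.6% lower. The pro-survival genes Mcl1, Bcl2l1 and Bcl2 rose 2.01-fold, 4.94-fold and 7.31-fold in PyMT TANs. Pro-death members diverged: Bcl2l11, Pmaip1 and Bax rose, Bid fell 3.47-fold in PyMT TANs and 2.47-fold in PyMT-Cxcr2-/- TANs, and Bbc3 passed the thresholds in neither. Between the TANs of the 2 genotypes, 0 of 10 members passed the thresholds, beside 1.38% of all genes higher under loss of Cxcr2 and 0.596% lower. Past the thresholds means a Benjamini-Hochberg adjusted p under 0.05 by edgeR's quasi-likelihood test and a fold change of at least 1.5.

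**Figure D1:**
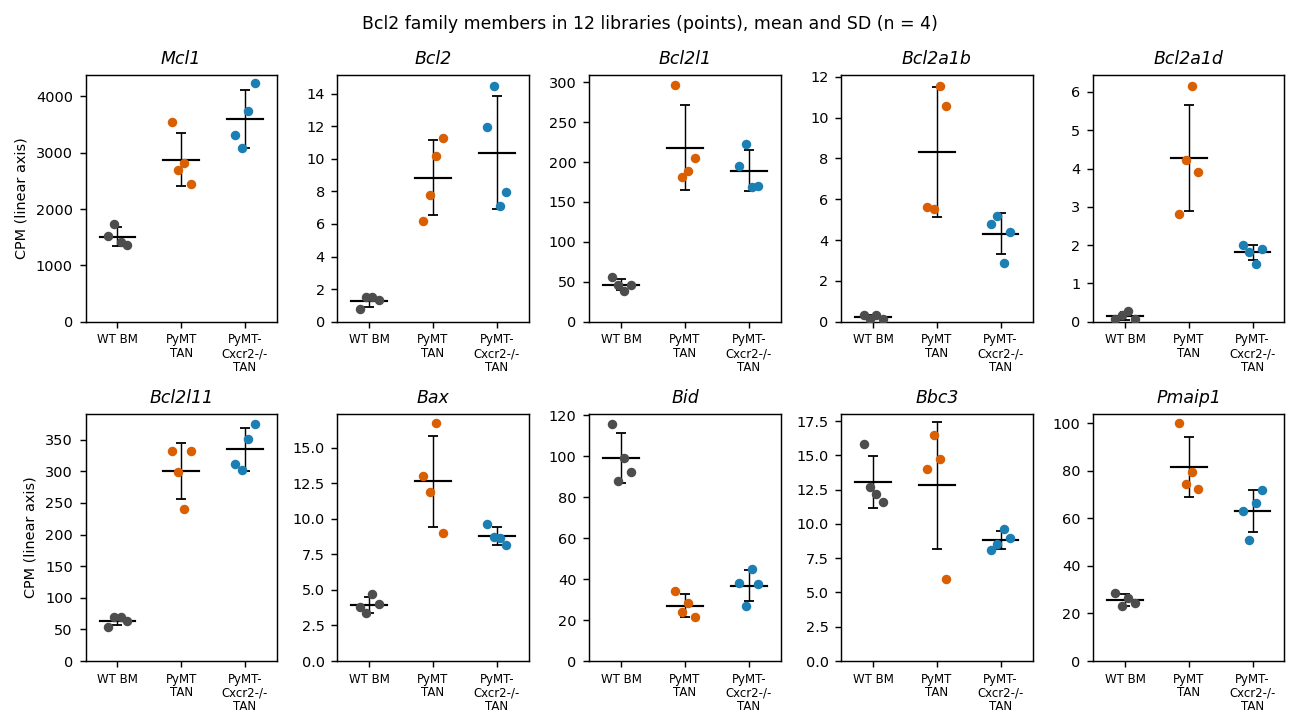
CPM on a linear axis that starts at 0 for each of the 10 members. Each point is 1 library, in grey for WT BM neutrophils, orange for PyMT TANs and blue for PyMT-Cxcr2-/- TANs, and the bars are the mean and SD of 4 libraries. The TAN points lie above every WT BM point for Mcl1, Bcl2, Bcl2l1, Bcl2a1b, Bcl2a1d, Bcl2l11, Bax and Pmaip1 and below every one for Bid, while Bbc3 in PyMT TANs spans from 6.0 to 16.5 CPM. Of all genes tested, 28.4% lay wholly above and 29.7% wholly below BM in PyMT TANs, and 32.5% and 33.3% in PyMT-Cxcr2-/- TANs.

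Among the pro-survival members, Mcl1 lies on chromosome 3 at 95658788-95663176 of GRCm38 (mm10), plus strand. It was at 3538, 2698, 2813 and 2450.1 CPM in the 4 PyMT TAN libraries, at 3317, 3077, 3737 and 4244 CPM in TANs of PyMT-Cxcr2-/- mice and at 1522, 1744, 1421 and 1355 CPM in WT BM neutrophils. Every TAN library was above every BM library, and the TAN groups overlapped. The log2 fold change against WT BM neutrophils was 1.01 ± 0.14 (SE, n = 4 against 4, adjusted p = 0.000103 by edgeR) in PyMT TANs and 1.37 ± 0.14 (adjusted p = 1.37e-06) in PyMT-Cxcr2-/- TANs. Mcl1 had the smallest rise of the 8 members that rose in PyMT TANs, from the highest level.

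Bcl2l1, whose main product Bcl-xL guards mitochondria in many long-lived cells, lies on chromosome 2 at 152780668-152831728, minus strand. Its levels were 297, 181, 189 and 205 CPM in PyMT TANs, 195, 223, 169 and 169.9 CPM in TANs of PyMT-Cxcr2-/- mice and 55.9, 46.2, 38.3 and 45.9 CPM in WT BM neutrophils. PyMT TAN replicate 1 was the highest library, and no TAN library was near the BM range. The log2 fold change was 2.30 ± 0.17 (adjusted p = 1.11e-06) in PyMT TANs and 2.15 ± 0.14 (adjusted p = 2.26e-08) in PyMT-Cxcr2-/- TANs, 4.94-fold and 4.43-fold higher. The gene gives both a long pro-survival and a short pro-death transcript by splicing, and gene counts do not separate them.

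Bcl2 itself, the founding member of the family, lies on chromosome 1 at 106538178-106714274, minus strand. It was at 6.20, 7.75, 10.1 and 11.3 CPM in PyMT TANs, at 12, 14.5, 7.13 and 7.94 CPM in TANs of PyMT-Cxcr2-/- mice and at 0.779, 1.53, 1.51 and 1.31 CPM in WT BM neutrophils. All 8 TAN libraries exceeded the 4 BM libraries, with PyMT-Cxcr2-/- TAN replicates 1 and 2 the highest. The summed mammary epithelium markers were at 39.2, 49.3, 285 and 411 CPM in the same PyMT TAN libraries. In those of PyMT-Cxcr2-/- mice they were at 211, 279, 69.8 and 106 CPM. Bcl2 had the same order of libraries as these sums in each TAN group, and their part in its level was not tested. Bcl2 rose 7.31-fold in PyMT TANs (log2 fold change 2.87 ± 0.33, adjusted p = 2.36e-05) and 8.78-fold in PyMT-Cxcr2-/- TANs (3.13 ± 0.29, adjusted p = 6.83e-07). Exons of Bcl2 share 558 bases with D630008O14Rik on the opposite strand, which reached at most 0.878 CPM in any library. Since the strand setting of the counting is not given in the sources used here, reads there could not be assigned to 1 of the 2 genes.

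The A1 genes are recent copies of one another, and Bcl2a1b and Bcl2a1d share most of their sequence with another copy, Bcl2a1a. Between annotated transcripts, Bcl2a1b and Bcl2a1d were identical at 810 of 817 aligned bases (99.1%), Bcl2a1b and Bcl2a1a at 802 of 817 (98.2%) and Bcl2a1d and Bcl2a1a at 809 of 819 (98.8%). The first 120 coding bases, in the first coding exon of each copy, are shown because they hold 7 of the positions by which the counts of the 3 copies can be told apart. Capitals mark the positions that differ among the copies. They lie at chr9:89199360-89199479 (Bcl2a1b, plus strand), chr9:88731600-88731719 (Bcl2a1d, minus strand) and chr9:88957051-88957170 (Bcl2a1a, plus strand) of GRCm38, from GENCODE transcripts.
Bcl2a1b: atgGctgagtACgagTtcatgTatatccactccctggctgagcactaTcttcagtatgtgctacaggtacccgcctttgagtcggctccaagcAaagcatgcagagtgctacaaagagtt
Bcl2a1d: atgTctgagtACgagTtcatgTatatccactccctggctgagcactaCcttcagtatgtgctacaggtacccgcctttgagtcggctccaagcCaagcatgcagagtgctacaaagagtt
Bcl2a1a: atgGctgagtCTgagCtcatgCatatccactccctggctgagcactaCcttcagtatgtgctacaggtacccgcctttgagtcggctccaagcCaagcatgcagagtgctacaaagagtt

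A run of 217 bases was identical in all 3 transcripts. Of all possible stretches of 150 bases, 14.2% in Bcl2a1b, 30.3% in Bcl2a1d and 28.2% in Bcl2a1a occurred unchanged in another copy. Reads that fit more than 1 place were not counted for any gene, so the levels of the copies may miss reads to unequal degrees and their split is uncertain. Bcl2a1b also shares 401 of its 817 exonic bases with Gm29094, a gene on the same strand that was listed at 0 in all 12 libraries.

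The copies rose together in TANs. Bcl2a1b was at 5.61, 5.51, 11.5 and 10.6 CPM in PyMT TANs, at 4.77, 5.19, 2.89 and 4.40 CPM in TANs of PyMT-Cxcr2-/- mice and at 0.330, 0.124, 0.343 and 0.140 CPM in WT BM neutrophils. Bcl2a1d was at 2.83, 4.22, 6.15 and 3.90 CPM in PyMT TANs, at 1.99, 1.83, 1.52 and 1.90 CPM in TANs of PyMT-Cxcr2-/- mice and at 0.0599, 0.187, 0.286 and 0.0838 CPM in WT BM neutrophils. The BM levels rest on 4 to 12 counts per library for Bcl2a1b and 2 to 10 for Bcl2a1d, so the size of the fold is uncertain while the groups are far apart. Against WT BM neutrophils, the log2 fold change of Bcl2a1b was 5.22 ± 0.49 (adjusted p = 4.85e-06) in PyMT TANs and 4.30 ± 0.37 (adjusted p = 3.53e-07) in PyMT-Cxcr2-/- TANs. For Bcl2a1d it was 4.85 ± 0.57 (adjusted p = 2.88e-05) and 3.65 ± 0.45 (adjusted p = 7.63e-06). Bcl2a1a rose too, by 3.29 ± 0.45 (adjusted p = 8.37e-05) and 2.65 ± 0.36 (adjusted p = 1.86e-05). Bcl2a1b and Bcl2a1d in each comparison, and Bcl2a1a in PyMT TANs, passed the filter through the TAN libraries alone. Those p-values therefore add no support for the rise.

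Summing the 3 copies removes the question of how reads were split among them, although not that of reads lost to all. The sum was 11.5, 14.6, 21.8 and 19.7 CPM in PyMT TANs, 10.0, 10.0, 6.69 and 8.52 CPM in TANs of PyMT-Cxcr2-/- mice and 0.719, 1.12, 1.06 and 0.531 CPM in WT BM neutrophils. Its log2 fold change was 4.39 ± 0.34 (adjusted p = 1.21e-06) in PyMT TANs and 3.48 ± 0.27 (adjusted p = 1.24e-07) in PyMT-Cxcr2-/- TANs. Bcl2a1b made up 37.7% to 53.8% of the sum in PyMT TANs and 43.2% to 51.7% in PyMT-Cxcr2-/- TANs. In the 4 BM libraries it made up 11.1% to 45.8%, from few counts.

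**Figure D2:**
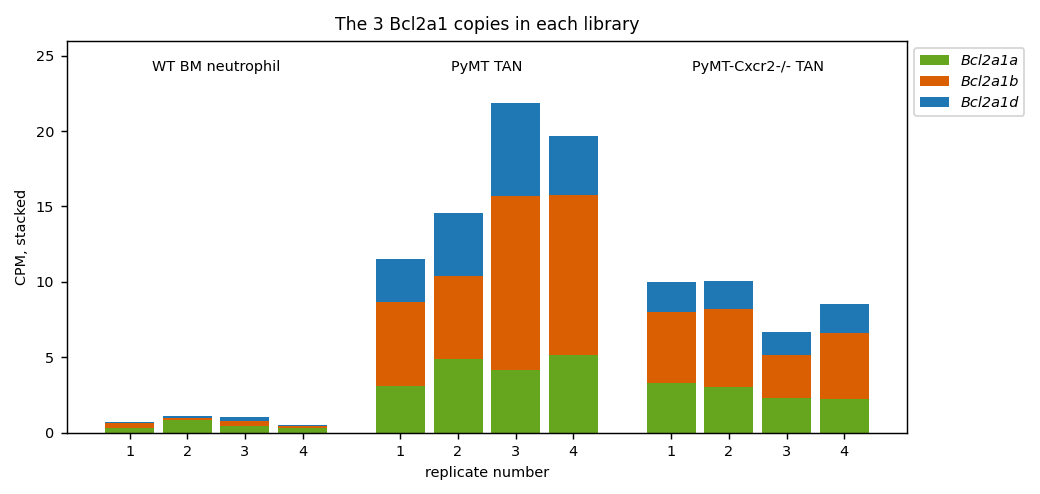
Stacked CPM of Bcl2a1a (green), Bcl2a1b (orange) and Bcl2a1d (blue) in each of the 12 libraries, with 1 bar per library. Bars of PyMT TANs run from 11.5 to 21.8 CPM, those of PyMT-Cxcr2-/- TANs from 6.69 to 10.0 CPM and those of WT BM neutrophils from 0.531 to 1.12 CPM.

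The bases before the starts of Bcl2a1b and Bcl2a1d are shown since both genes rose in TANs of both genotypes. They are 186 bases of RefSeq promoter windows (GRCm38.p6) up to the base before the first annotated exon, at chr9:89199023-89199208 on the plus strand for Bcl2a1b and at chr9:88731915-88732100 on the minus strand for Bcl2a1d. The stretches overlap over 142 aligned positions, of which 135 (95.1%) were identical. Within this overlap, capitals mark bases that differ or that have no partner in the other copy. The end of the Bcl2a1b stretch and the beginning of the Bcl2a1d stretch lie outside the overlap. They were not compared and are in lower case too. Of the 10 members, 9 had such a window in the RefSeq table.
Bcl2a1b: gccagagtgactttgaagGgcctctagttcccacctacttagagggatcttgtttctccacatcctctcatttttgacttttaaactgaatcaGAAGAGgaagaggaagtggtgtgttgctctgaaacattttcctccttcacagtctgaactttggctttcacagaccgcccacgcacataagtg
Bcl2a1d: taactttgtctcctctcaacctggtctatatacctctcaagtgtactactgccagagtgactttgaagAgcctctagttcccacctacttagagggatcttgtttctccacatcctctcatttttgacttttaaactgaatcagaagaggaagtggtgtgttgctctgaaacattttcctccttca

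Among the pro-death members, Bcl2l11 (chromosome 2, 128126038-128162547, plus strand) encodes Bim, a BH3-only protein that binds all pro-survival members. Its levels were 333, 298, 239.6 and 333 CPM in PyMT TANs, 312, 302, 351 and 375 CPM in TANs of PyMT-Cxcr2-/- mice and 53.9, 69.8, 68.9 and 63.0 CPM in WT BM neutrophils. The lowest TAN library was over 3 times the highest BM library. The log2 fold change was 2.32 ± 0.14 (adjusted p = 2.53e-07) in PyMT TANs and 2.51 ± 0.12 (adjusted p = 2.04e-09) in PyMT-Cxcr2-/- TANs, 4.98-fold and 5.69-fold higher.

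Pmaip1 encodes Noxa, which binds Mcl1 and A1 and promotes the degradation of Mcl1. It was at 100.1, 74.6, 79.5 and 72.4 CPM in PyMT TANs, at 62.9, 51.0, 66.4 and 71.8 CPM in TANs of PyMT-Cxcr2-/- mice and at 28.7, 23.1, 26.5 and 24.6 CPM in WT BM neutrophils. Each TAN group was clear of the BM range. It rose 3.35-fold in PyMT TANs (log2 fold change 1.75 ± 0.14, adjusted p = 1.28e-06) and 2.66-fold in PyMT-Cxcr2-/- TANs (1.41 ± 0.12, adjusted p = 2.37e-07).

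Bax, the effector that forms pores in the outer membrane, lies on chromosome 7 at 45461697-45466898, minus strand. It was at 13, 11.9, 16.7 and 9.0 CPM in PyMT TANs, at 9.64, 8.75, 8.66 and 8.17 CPM in TANs of PyMT-Cxcr2-/- mice and at 3.8, 3.36, 4.71 and 4.0 CPM in WT BM neutrophils. PyMT TANs were spread widely, with PyMT TAN replicate 4 inside the range of PyMT-Cxcr2-/- TANs. The rise was 3.37-fold in PyMT TANs (log2 fold change 1.75 ± 0.25, adjusted p = 0.0001) and 2.41-fold in PyMT-Cxcr2-/- TANs (1.27 ± 0.17, adjusted p = 2.22e-05). Gm45808, which shares 192 exonic bases with Bax on the same strand, was listed at 0 in all 12 libraries.

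Bid (chromosome 6, 120891930-120916853, minus strand) links death receptors to mitochondria once caspase-8 has cleaved it, and it was the only member past the thresholds in the lower direction. It was at 34.4, 24.1, 28.3 and 21.4 CPM in PyMT TANs, at 37.9, 26.8, 44.9 and 37.8 CPM in TANs of PyMT-Cxcr2-/- mice and at 116, 88.1, 99.4 and 92.5 CPM in WT BM neutrophils. No TAN library reached the lowest BM library. The log2 fold change was -1.79 ± 0.16 (adjusted p = 3.49e-06) in PyMT TANs and -1.31 ± 0.14 (adjusted p = 2.77e-06) in PyMT-Cxcr2-/- TANs. Exons of Bid share 628 bases with Bcl2l13 on the opposite strand, which was at 30.5 ± 3.55, 38.0 ± 3.24 and 34.1 ± 4.76 CPM (SD, n = 4) in PyMT TANs, PyMT-Cxcr2-/- TANs and WT BM neutrophils.

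Bbc3 (chromosome 7, 16308393-16318205, plus strand) encodes Puma, a BH3-only protein induced by p53 and by loss of growth factors. It was at 14, 16.5, 14.7 and 6.0 CPM in PyMT TANs, at 8.11, 8.54, 9.64 and 8.94 CPM in TANs of PyMT-Cxcr2-/- mice and at 15.8, 12.7, 12.2 and 11.6 CPM in WT BM neutrophils. Of the PyMT TAN libraries, replicates 1 and 3 lay inside the BM range, replicate 2 above it and replicate 4 far below it, and the log2 fold change was 0.05 ± 0.28 (adjusted p = 0.897, 95% interval -0.57 to 0.67). All 4 PyMT-Cxcr2-/- TAN libraries were below all 4 BM libraries, with a log2 fold change of -0.45 ± 0.15 (adjusted p = 0.0164), which is 1.37-fold lower and under the fold limit. Removing the trend of each library with GC content and length took the latter to -1.08 (adjusted p = 2.11e-05), past both thresholds. That fit also evened out the mean log2 CPM of the libraries, and its part in the shift was not tested.

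Calls in this pair of tissues were frequent over all genes. In PyMT TANs against WT BM neutrophils, 30.1% of 17153 tested genes were past the thresholds higher and 23.2% lower, beside 8 and 1 of the 10 members. In PyMT-Cxcr2-/- TANs, 34.4% of 17732 genes were higher and 25.1% lower, beside 8 and 1 members. The groups did not overlap, with TANs higher, for 8 members in PyMT TANs (28.4% of all genes) and for 8 in PyMT-Cxcr2-/- TANs (32.5%). They did not overlap, with TANs lower, for 1 member in PyMT TANs (29.7% of all genes) and for 2, Bid and Bbc3, in PyMT-Cxcr2-/- TANs (33.3%). The median log2 fold change of the members was 2.03 in PyMT TANs and 1.78 in PyMT-Cxcr2-/- TANs, while over all genes it was 0.09 in each. Without genes that passed the filter through 1 group alone, the medians were 1.75 and 1.39 for 8 members and -0.03 and -0.09 over 12178 and 13336 genes, of which 27.4% and 27.1% were higher and 28% and 28.6% lower. The summed macrophage and epithelium markers were higher in TANs too, and their part in these changes was not tested. With the trends with GC content and length removed, the median over all genes moved to -0.15 and -0.39 and the share of calls that were higher from 56.4% to 46.0% in PyMT TANs and from 57.9% to 39.8% in PyMT-Cxcr2-/- TANs. That fit also evened out the mean log2 CPM of the libraries over the tested genes. Shifts under it therefore mix a change of scaling with the trends, and these were not separated. The log2 fold changes that moved most were then 2.15 for Bcl2 in PyMT TANs and, in PyMT-Cxcr2-/- TANs, 2.20 for Bcl2, 1.46 for Bcl2l1 and 1.74 for Bcl2l11. Mcl1 was then at 0.67 and 0.82, and all 9 calls of each comparison stood.

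Comparing genes with one another needs levels per length, given here as CPM per kb of all annotated exons. On this scale Mcl1 was at 841 ± 137 CPM per kb (SD, n = 4) in PyMT TANs, 1051 ± 149.8 in TANs of PyMT-Cxcr2-/- mice and 442 ± 49.7 in WT BM neutrophils, the highest member in each group. It made up 92.9% ± 0.808 of the summed level of the 5 pro-survival members in PyMT TANs, 95.4% ± 1.2 in TANs of PyMT-Cxcr2-/- mice and 97.6% ± 0.342 in WT BM neutrophils. The rest was mostly Bcl2l1, at 5.23% ± 0.631, 3.84% ± 0.980 and 2.25% ± 0.362 in the same order. Per length of the longest transcript, Bcl2l1 made up 8.96%, 6.65% and 3.95%, and Mcl1 89.2%, 92.6% and 95.9%.

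The order below Mcl1 differed between tissues. In WT BM neutrophils, Bid was the next at 27.9 ± 3.45 CPM per kb, above Bcl2l1 at 10.2 ± 1.57, and these ranges did not overlap. Pmaip1, at 9.41 ± 0.891, overlapped with Bcl2l1 above it and with Bcl2l11 at 7.96 ± 0.908 below it. In PyMT TANs, Bcl2l1 at 47.5 ± 11.6 and Bcl2l11 at 37.5 ± 5.47 followed Mcl1 and overlapped each other, while Bid at 7.62 ± 1.60 came seventh and overlapped Bax and Bbc3. In PyMT-Cxcr2-/- TANs, Bcl2l11 at 41.7 ± 4.24 and Bcl2l1 at 41.3 ± 5.53 overlapped, Pmaip1 followed at 23.1 ± 3.23 and Bid at 10.4 ± 2.11, each apart from the member above it. Bcl2 had the lowest mean in all 3 groups, at 0.965 ± 0.250, 1.13 ± 0.378 and 0.140 ± 0.0382 CPM per kb in PyMT TANs, PyMT-Cxcr2-/- TANs and WT BM neutrophils, and in the last it overlapped with Bcl2a1d at 0.179 ± 0.120. Per length of the longest transcript, the BM means of Bcl2 and Bcl2a1d were 0.178 and 0.179.

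The make-up of the summed pro-death level is given as a description, with no test. Bid was 51.6% ± 2.17 of the summed pro-death level in WT BM neutrophils, 8.51% ± 1.09 in PyMT TANs and 12.2% ± 1.61 in PyMT-Cxcr2-/- TANs. Bcl2l11 was 14.9% ± 2.60 in WT BM neutrophils, 42.2% ± 6.20 in PyMT TANs and 49.2% ± 1.88 in PyMT-Cxcr2-/- TANs. Pmaip1 went from 17.4% ± 0.387 to 33.5% ± 1.95 and 27.1% ± 1.28. Bbc3 went from 11.4% ± 0.983 to 6.76% ± 2.46 and 4.91% ± 0.434, and Bax from 4.68% ± 0.647 to 9.06% ± 2.45 and 6.65% ± 0.989. The sum of the 5 pro-death levels was 53.9 ± 4.45 CPM per kb in WT BM neutrophils, 89.0 ± 9.22 in PyMT TANs and 84.9 ± 8.91 in PyMT-Cxcr2-/- TANs. The sum of the 5 pro-survival levels was 453 ± 50.1, 905 ± 144 and 1101 ± 144 CPM per kb in the same order.

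**Figure D3:**
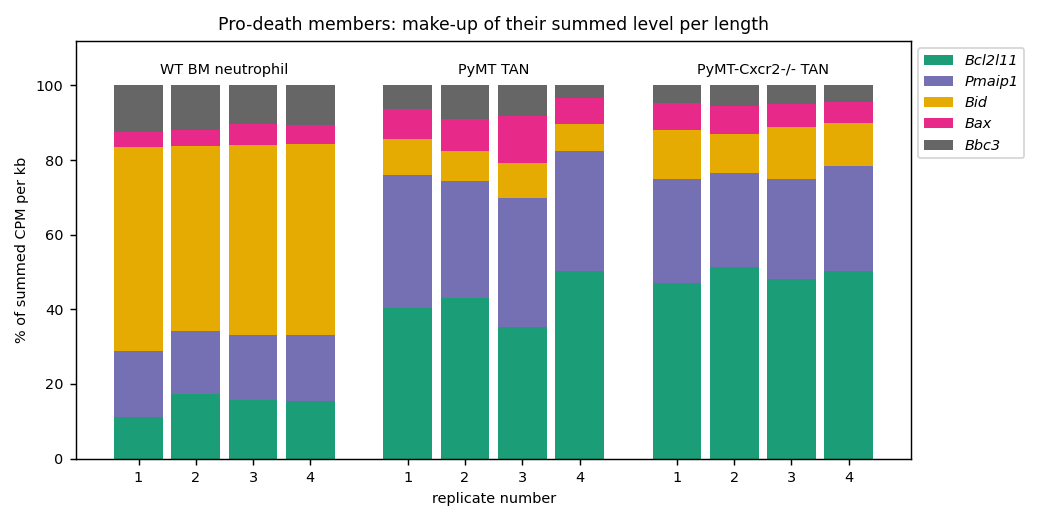
Share of each pro-death member (Bcl2l11, Pmaip1, Bid, Bax and Bbc3) in their summed CPM per kb, in percent, with 1 stacked bar for each of the 12 libraries. Bid fills 49.6% to 54.7% of each WT BM bar and 7.32% to 13.9% of each TAN bar, and Bcl2l11 fills 35.3% to 51.2% of each TAN bar.

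As a description with no test, the summed pro-survival level over the summed pro-death level was 10.8, 9.73, 10.5 and 9.46 in PyMT TANs, 12.4, 13.1, 12.5 and 13.8 in TANs of PyMT-Cxcr2-/- mice and 7.66, 10.4, 7.73 and 7.99 in WT BM neutrophils. The 4 PyMT-Cxcr2-/- TAN libraries were the highest, and BM replicate 2 lay within the PyMT TAN range. This ratio weighs transcripts alike, whatever protein they give, and is mostly Mcl1 over Bcl2l11 and Pmaip1 in TANs and Mcl1 over Bid in WT BM neutrophils. Dividing by the longest annotated transcript in place of all exons gave 7.86 ± 0.603, 9.63 ± 0.458 and 6.27 ± 0.946 in PyMT TANs, PyMT-Cxcr2-/- TANs and WT BM neutrophils.

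Between TANs of the 2 genotypes, 0 of 10 members were past the thresholds by edgeR, beside 1.38% of 18463 tested genes past them with a higher level under loss of Cxcr2 and 0.596% with a lower one. The share of calls that were higher went from 69.9% to 55.8% with the GC content and length trends removed, by the fit that also evened out mean log2 CPM. At an unadjusted p under 0.05, 4 members stood, Bcl2a1b, Bcl2a1d, Bax and Pmaip1, beside 15.2% of all genes. DESeq2 called 1 member, Bcl2a1d, and 7.66% of the 13500 genes it gave an adjusted p. In PyMT-Cxcr2-/- TANs, 6 members were lower and 4 higher by the sign of the fold change, with a median log2 fold change of -0.32 beside -0.07 over all genes.

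All 4 PyMT-Cxcr2-/- TAN libraries were below all 4 PyMT TAN libraries for 3 members, Bcl2a1b, Bcl2a1d and Pmaip1, and above for 0. Over all genes the groups did not overlap in 5.05% in that direction and in 6.89% in the other. Bcl2a1d had a log2 fold change of -1.28 ± 0.34 (adjusted p = 0.0879, 95% interval -2.03 to -0.52) by edgeR and -1.22 (adjusted p = 0.00649) by DESeq2. For Bcl2a1b it was -0.98 ± 0.32 (adjusted p = 0.156, 95% interval -1.70 to -0.27), and for the 3 copies summed -0.98 ± 0.24 (adjusted p = 0.0681). Pmaip1 had -0.41 ± 0.15 (adjusted p = 0.215, 95% interval -0.74 to -0.07).

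For the other members the intervals give a range of differences for each gene alone, unadjusted for the number of members, and are not limits. Mcl1 had a log2 fold change of 0.29 ± 0.16 (adjusted p = 0.446, 95% interval -0.06 to 0.64), with the upper end at a 1.56-fold higher level. Bcl2l11 had 0.12 ± 0.14 (adjusted p = 0.794, 95% interval -0.19 to 0.43), with the upper end at 1.35-fold. Bcl2l1 had -0.23 ± 0.17 (adjusted p = 0.604, 95% interval -0.61 to 0.14).

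The remaining 4 were less precise. Bcl2 had 0.19 ± 0.29 (adjusted p = 0.851, 95% interval -0.43 to 0.82), and Bid 0.41 ± 0.20 (adjusted p = 0.351, 95% interval -0.01 to 0.84). Bax had -0.56 ± 0.22 (adjusted p = 0.246, 95% interval -1.04 to -0.07), and Bbc3 -0.57 ± 0.29 (adjusted p = 0.38, 95% interval -1.20 to 0.05). A p that misses the threshold does not show that the genotypes had equal levels. The neutrophil markers summed to more in each PyMT-Cxcr2-/- TAN library than in any PyMT TAN library, the macrophage and epithelium sums overlapped between the genotypes, and their part in these differences was not tested.

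**Figure D4:**
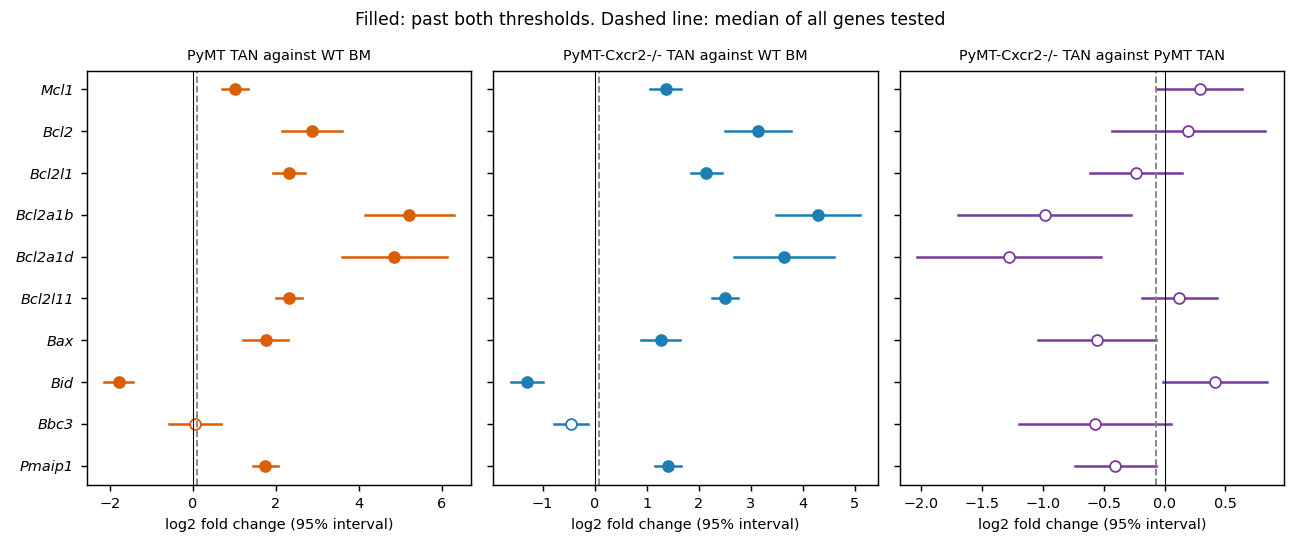
Log2 fold changes of the 10 members with 95% intervals in the 3 comparisons, each panel with its own axis. Filled circles passed both thresholds, open circles did not, and the dashed line is the median of all genes tested (0.09, 0.09 and -0.07). Against WT BM neutrophils all members but Bbc3 are filled, and between the TANs all 10 are open.

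With the other genes of the family included, 7 of 7 tested pro-survival genes rose in each TAN group, 5 of them the members described above. Leaving out the A1 genes that passed the filter through TANs alone (3 in PyMT TANs, 2 in PyMT-Cxcr2-/- TANs), 4 of 4 and 5 of 5 rose, with median log2 fold changes of 2.34 and 2.15. Of all genes that passed the filter in both groups, 27.4% rose and 28% fell in PyMT TANs, and 27.1% and 28.6% in PyMT-Cxcr2-/- TANs. Of the BH3-only genes, 3 rose and 2 fell of 6 tested in PyMT TANs (median 0.90), and 3 rose and 2 fell of 6 in PyMT-Cxcr2-/- TANs (median 0.48), leaving out Bik, which was tested through those TANs alone. Of the rest of the family, Bcl2l2, a pro-survival member, rose in TANs of both genotypes (2.38 ± 0.45, adjusted p = 0.000867, and 2.06 ± 0.29, adjusted p = 2.99e-05). Bmf, a BH3-only gene, rose from 1.30 ± 0.208 CPM in WT BM neutrophils to 12.4 ± 4.69 in PyMT TANs and 16.3 ± 6.67 in PyMT-Cxcr2-/- TANs. Bad, another BH3-only gene, fell in both (-1.34 ± 0.25, adjusted p = 0.000803, and -0.69 ± 0.16, adjusted p = 0.00187), the latter to -0.58, under the fold limit, without PyMT-Cxcr2-/- TAN replicate 3. Bak1, the other effector beside Bax, fell in PyMT TANs (-0.90 ± 0.19, adjusted p = 0.00199) and in PyMT-Cxcr2-/- TANs had -0.49 ± 0.13, under the fold limit. Bik was at 0.521 to 1.78 CPM in TANs of PyMT-Cxcr2-/- mice and at 0 to 0.0899 CPM in WT BM neutrophils.

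Downstream of the mitochondrion lie 11 genes of the apoptosome and caspase list. In PyMT TANs 1 rose and 5 fell of 10 tested, beside 27.4% and 28% of all genes that passed the filter in both groups. Their median log2 fold change was -0.60. In PyMT-Cxcr2-/- TANs 1 rose and 4 fell of 10, beside 27.1% and 28.6% of all such genes, with a median of -0.49. This leaves out Endog, which was tested through those TANs alone. Casp9, the initiator caspase of the apoptosome, was among the largest falls in PyMT TANs (-1.29 ± 0.17). Cytochrome c (Cycs) was among those in PyMT-Cxcr2-/- TANs (-0.96 ± 0.16). Each is given only for the group where it was among the largest falls, so a fall in the other is not excluded. Between the TANs of the 2 genotypes, 0 of the 11 genes passed the thresholds. Casp6, an executioner caspase, rose in both TAN groups (2.36 ± 0.24 and 2.24 ± 0.21). Endog, a mitochondrial nuclease, was at 0.250 to 1.45 CPM in TANs of PyMT-Cxcr2-/- mice and at 0 to 0.124 CPM in WT BM neutrophils.

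Of 9 inhibitors of apoptosis, 1 rose and 3 fell in each TAN group, with median log2 fold changes of -0.57 and -0.20 (-0.39 in PyMT TANs without Naip1, which was tested through BM neutrophils alone). Among all genes tested, 30.1% and 34.4% rose and 23.2% and 25.1% fell. Birc3, which ubiquitinates signalling proteins at TNF receptors, was the inhibitor that rose, to 627 ± 108 CPM in PyMT TANs and 847 ± 165 in PyMT-Cxcr2-/- TANs from 165 ± 10.6 in WT BM neutrophils. Xiap, the direct inhibitor of caspases, fell (-0.78 ± 0.13 and -0.65 ± 0.09). Naip2 fell (-1.03 ± 0.12 and -0.86 ± 0.10), although it is known as a sensor of bacterial protein rather than for blocking caspases. Birc5, which acts in cell division, fell (-1.06 ± 0.36, adjusted p = 0.0251, and -1.41 ± 0.22, adjusted p = 5.71e-05), the first being lost without PyMT TAN replicate 2 (adjusted p = 0.0531) or BM replicate 2 or 4 (0.0546 and 0.058).

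Upstream of Bid, 3 of 8 genes of the death receptor list rose in PyMT TANs and 2 in PyMT-Cxcr2-/- TANs, with none lower and median log2 fold changes of -0.13 and 0.10, leaving out Fasl, which was tested through TANs alone. The shares over all genes that passed the filter in both groups were 27.4% and 27.1% higher and 28% and 28.6% lower. Fasl, the ligand of Fas, was at 0.738 to 3.47 CPM in PyMT TANs, 0.852 to 2.52 CPM in TANs of PyMT-Cxcr2-/- mice and 0 to 0.0622 CPM in WT BM neutrophils. The adaptor Fadd passed in both (1.4 ± 0.48, adjusted p = 0.0265, and 1.02 ± 0.35, adjusted p = 0.0183), although its ranges overlapped with the BM range, and without the GC content and length trends neither call stood (adjusted p = 0.0903 and 0.298). With 1 library left out, the Fadd call stood in 4 of 8 fits in PyMT TANs and in 5 of 8 in PyMT-Cxcr2-/- TANs. By edgeR it was also lost in PyMT TANs with the replicate block (adjusted p = 0.0812). In PyMT-Cxcr2-/- TANs it was lost with 12 libraries in 1 fit (adjusted p = 0.0953). Tnfrsf10b, the mouse receptor for TRAIL, rose in both and differed between genotypes. It was at 6.57, 7.17, 10.4 and 7.52 CPM in PyMT TANs, at 16, 15.5, 18.2 and 18.9 CPM in TANs of PyMT-Cxcr2-/- mice and at 1.96 to 2.97 CPM in WT BM neutrophils, 2.12-fold higher in PyMT-Cxcr2-/- TANs than in PyMT TANs (1.08 ± 0.21, adjusted p = 0.0248). Casp8, the caspase that cleaves Bid, moved the opposite way. It was at 38.6, 42.3, 45.7 and 39.0 CPM in the PyMT TANs and at 29.8, 28.5, 22.7 and 24.4 CPM in the PyMT-Cxcr2-/- TANs, 1.61-fold lower (-0.69 ± 0.15, adjusted p = 0.0394). Against WT BM neutrophils, at 24.1 to 26.7 CPM, it rose in PyMT TANs (0.81 ± 0.13, adjusted p = 0.000223).

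Of 12 genes of the p53 pathway outside the family, leaving out Phlda3, which was tested through TANs alone, 5 rose and 2 fell in PyMT TANs and 6 rose and 2 fell in PyMT-Cxcr2-/- TANs, with medians of 0.55 and 0.60. Beside these stand 27.4% and 27.1% higher and 28% and 28.6% lower of all genes that passed the filter in both groups. Cdkn1a, which encodes the cell cycle inhibitor p21, was at 293 to 440.0 CPM in PyMT TANs, at 159 to 199 CPM in TANs of PyMT-Cxcr2-/- mice and at 1.26 to 3.11 CPM in WT BM neutrophils, and it was 1.87-fold lower in PyMT-Cxcr2-/- TANs than in PyMT TANs (-0.90 ± 0.16, adjusted p = 0.0182). The nuclease gene Aen rose (2.62 ± 0.32 and 2.04 ± 0.24). Phlda3, an inhibitor of Akt, was at 0.316 to 1.5 CPM in PyMT TANs, 0.582 to 2.45 CPM in TANs of PyMT-Cxcr2-/- mice and 0 to 0.0599 CPM in WT BM neutrophils. Mdm4, which restrains p53, fell (-1.48 ± 0.14 and -1.31 ± 0.10), and so did Trp53inp1 (-2.21 ± 0.18 and -1.86 ± 0.16).

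The 3 calls between the genotypes depended on single libraries and on the processing, with the direction kept. That of Casp8 was lost with any 1 of the 8 libraries left out, at an adjusted p of 0.0502 to 0.19, and also with RLE factors (0.0534) and with no filter on low counts (0.0771). That of Tnfrsf10b was lost without PyMT-Cxcr2-/- TAN replicate 1, 3 or 4 (adjusted p = 0.0547, 0.0912 and 0.0868) and without PyMT TAN replicate 2 or 4 (0.0846 and 0.0572). That of Cdkn1a was lost without PyMT-Cxcr2-/- TAN replicate 3 or 4 (adjusted p = 0.0701 and 0.0845) and without PyMT TAN replicate 2 (0.0591). With the GC content and length trends removed, Tnfrsf10b and Casp8 were at an adjusted p of 0.103 and 0.13, with log2 fold changes of 1.01 and -0.77. The lists of the caspases, the inhibitors of apoptosis, Mcl1 turnover and the mitochondrial pore had 0 genes past the thresholds in this comparison.

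Of 6 genes that act on the turnover of Mcl1 protein, 1 rose in PyMT TANs and 2 in PyMT-Cxcr2-/- TANs, with none lower and medians of -0.05 and 0.13. Huwe1, a ubiquitin ligase for Mcl1, rose in both TAN groups (1.82 ± 0.13 and 1.77 ± 0.09), with 0.91 and 0.66 once the trends with GC content and length were removed. Usp9x, which removes ubiquitin from Mcl1, passed in PyMT-Cxcr2-/- TANs (0.70 ± 0.10, adjusted p = 2.4e-05) but was at -0.17 with those trends removed. Of 6 partners at the mitochondrial membrane, 1 rose and 2 fell in PyMT TANs (median -0.26) and 1 rose and 1 fell in PyMT-Cxcr2-/- TANs (median -0.20). For both lists, the shares over all genes that passed the filter in both groups were 27.4% and 27.1% higher and 28% and 28.6% lower. Dnm1l, the fission dynamin, rose in both (1.01 ± 0.20 and 0.98 ± 0.17, the latter to 0.53, under the fold limit, with those trends removed) and Mff, its receptor, fell in both (-1.36 ± 0.12 and -1.01 ± 0.09). Vdac2, a channel that holds Bak, fell in PyMT TANs (-0.65 ± 0.10, adjusted p = 0.000272), a call lost with upper-quartile factors (-0.56, under the fold limit). The fit for GC content and length also evened out the mean log2 CPM of the libraries, so shifts under it are not of the trends alone. Removing those trends also moved some other values against WT BM neutrophils by over 1.5 times as folds, without ending the call. In PyMT-Cxcr2-/- TANs the log2 fold changes became 1.41 for Bcl2l2, 2.95 for Bmf, 1.62 for Casp6, 1.28 for Aen, 5.68 for Cdkn1a, -1.40 for Xiap, -1.59 for Naip2 and -2.47 for Trp53inp1. Mdm4 became -2.08 in PyMT TANs and -2.09 in PyMT-Cxcr2-/- TANs.

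As a description, the genes whose log2 CPM over the 12 libraries was most like that of a member were taken from 11091 genes by Pearson correlation. For Mcl1 they were Themis2 (0.99), Arid5a (0.98) and Fosl2 (0.98). For Bcl2l11 they were Dennd4a, Arih2 and Pde4b (0.996, 0.995 and 0.995), and for Bax they were Sdad1, Eef1d and Bms1 (0.98, 0.97 and 0.97). These values share the libraries and rest mostly on the gap between TANs and BM neutrophils.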

How the data were processed

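RNA-seq libraries of sorted neutrophils (CD45+ CD11b+ Ly6G+ F4/80-) in 3 groups of 4 were used. Per the study's methods, the authors removed ribosomal RNA, made directional libraries, trimmed paired reads, mapped these to mm10 (STAR) and counted per gene (HTSeq). The deposited values are raw counts per gene. Tool versions, annotation release and strand setting are not given in the sources used here. Of each total, 32.0% to 42.4% fell in no gene in BM libraries and 39.9% to 52.5% in TAN libraries. Between 9.22% and 11.4% aligned to more than 1 place in BM libraries and between 6.07% and 8.72% in TAN libraries. Neither kind of read entered the counts used.

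Of 55335 genes, 55154 matched GENCODE M21. From the counts, CPM were computed with TMM factors over 12 libraries. Each comparison was fitted on its 2 groups alone with edgeR 4.0.16 in R 4.3.3 (filterByExpr, TMM, robust quasi-likelihood test, Benjamini-Hochberg adjustment over all genes tested). The SE is the log2 fold change divided by the square root of F, and 95% intervals use the t distribution. Levels per length divide CPM by the union of annotated exons. Correlations used log2 CPM with a prior count of 2 and genes with a mean of at least 1. The members and lists were chosen with earlier results of these data known. Named were the 10 members, Bcl2a1a, Cxcr2, list genes past the thresholds between the TANs, up to 3 largest rises and falls of each list against BM, and the genes most like Mcl1, Bax and Bcl2l11. Some genes that this rule names are not reported here. Alternatives were RLE and upper-quartile factors, no count filter, DESeq2 1.42.0, the replicate number as a block, 12 libraries in 1 fit, non-robust estimation, removal of each library's trend with GC content and length (known for 99.9% of tested genes), no fold limit, summed copies, the longest transcript, and each library left out. The fit for GC content and length also evened out the mean log2 CPM of the libraries over the tested genes, in place of the TMM scaling. Counts of genes that passed the filter in both groups were added after seeing the data. Procedures were tested on simulated data. Every pair of replicates differed by more than sampling noise.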

Additional observations from a re-analysis of the deposited data

Results flagged for a closer look

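Of 72 groups of 4 values tested for a library far from the other 3, chance would place about 1 in 20 beyond the limit, and 3 were. Cdkn1a was at 440.0 CPM in PyMT TAN replicate 1, where the other 3 libraries of the group were between 293 and 306 CPM. Cdkn1a was also apart in WT BM neutrophil replicate 1, at 1.26 CPM where the others were between 2.82 and 3.11 CPM. The summed erythroid markers were at 130 CPM in PyMT TAN replicate 3 and between 1.38 and 2.57 CPM in the other PyMT TAN libraries. No member was apart in any group by this test.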

How the results depend on the processing

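The 9 calls among the members in PyMT TANs against WT BM neutrophils stood under all other fits, and so did the 9 in PyMT-Cxcr2-/- TANs, where Bbc3, lower, was added with trends in GC content and length removed (-1.08), with these and the replicate block (-1.08) and without the fold limit. Between the TANs, 0 members passed except for Bcl2a1d by DESeq2, 1 call. Bbc3 in PyMT TANs against WT BM neutrophils, 0.05 in the report, turned to -0.021 with RLE factors, -0.0314 with no filter, -0.0304 by DESeq2, -0.0161 with 12 libraries in 1 fit, -0.0326 with the replicate block, -0.27 with GC content and gene length and -0.35 with both. It was between -0.11 and 0.27 with each library left out. Bcl2 between the TANs was -0.0035 without PyMT-Cxcr2-/- TAN replicate 2, and between -0.0035 and 0.36 over all libraries left out. Usp9x in PyMT-Cxcr2-/- TANs against WT BM neutrophils turned to -0.17 with GC content and gene length and -0.18 with the replicate block added.

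Over all genes, 365 passed between the TANs, 594 with no filter on low counts, 1034 by DESeq2, 886 with 12 libraries in 1 fit, 13 with the replicate block, 104 with GC content and gene length and 30 with both. With each library left out there were 23 to 513: 23 without PyMT TAN replicate 2, 189 without its replicate 4, and 213, 227, 83 and 96 without PyMT-Cxcr2-/- TAN replicates 1, 2, 3 and 4. The cause was not tested. Same-numbered libraries of different groups come from different genotypes. The correlations of their deviations were -0.32 to 0.01 between the TANs, -0.18 to 0.12 for PyMT TANs with BM and 0.02 to 0.16 for PyMT-Cxcr2-/- TANs with BM, and 0, 0 and 5 of 8 libraries were best with their own number. The block alone changed no call among the members, and it ended the calls between the TANs of Tnfrsf10b, Casp8 and Cdkn1a (adjusted p = 0.135, 0.217 and 0.122 by edgeR). Of the levels per length, 16 of 30 moved by more than 1 SD with the longest transcript, and places changed for Bcl2l1 above Bcl2l11 in PyMT-Cxcr2-/- TANs, Bax and Bid above Bcl2a1b in PyMT TANs and Bcl2l11 above Pmaip1 in BM. Counting only genes that passed the filter in both groups, chosen after seeing the data, left 7, 7 and 0 calls among the members. Low BM counts of the A1 genes limit their folds.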
